A study of Homo sapiens with 27 samples.

Results

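The 9 genes HLA-B, HLA-C, HLA-E, B2M, TAP1, TAP2, TAPBP, PSMB8 and PSMB9, which encode parts of the MHC class I antigen presentation pathway, were taken by symbol and primary-assembly Ensembl identifier from the 57165 genes measured by RNA-seq, and all 9 were found and passed the filter on low counts in every comparison. RNA was measured in SUM159 and MDA-MB-231, human triple negative breast cancer lines of mesenchymal character, in which the transcriptional repressor ZEB1 had been silenced with dCas9-KRAB, a nuclease-dead Cas9 joined to a repressor domain that gRNAs bring to the ZEB1 promoter. The 27 libraries form 9 groups of 3. SUM159 was sampled as untransduced wild type cells in sequencing run 1, with dCas9-KRAB but without a guide (No gRNA), with dCas9-KRAB plus gRNA 4, with dCas9-KRAB plus the pool of 4 guides (All gRNA), and as wild type cells again in run 2. MDA-MB-231 cells were wild type cells, No gRNA cells and sets of 3 libraries each, here set 1 and set 2, that carry dCas9-KRAB and gRNAs against ZEB1. Title and column header contradict each other for these 6 libraries (set 1 is gRNA 4 by title but the pool by header, and set 2 the opposite), so neither set was given a guide. All transduced groups, No gRNA included, carry the lentiviral vector and were selected with puromycin, which the wild type cells were not, so vector, transduction and selection cannot be told apart between them. The study's methods call the replicates individual clones.

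MHC class I molecules show peptides from inside the cell to CD8+ T cells. The immunoproteasome, of which PSMB8 and PSMB9 are catalytic subunits made on interferon exposure, cuts proteins into peptides, the transporter TAP1-TAP2 moves them into the endoplasmic reticulum, and tapasin (TAPBP) holds an empty class I molecule next to the transporter. A class I molecule is a polymorphic heavy chain (such as HLA-B and HLA-C) or a less variable one (HLA-E, which NK cells read through CD94-NKG2A) bound to the light chain β2-microglobulin (B2M). The genes share promoter elements bound by interferon regulatory factors, by NF-κB and by the NLRC5 complex, and tumours often lower them.

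On GRCh38, 8 of the genes lie in the MHC on chromosome 6, and B2M lies on chromosome 15 from 44711358 to 44718851 on the plus strand. HLA-E (30489509 to 30494194, plus strand), HLA-C (31268749 to 31272130, minus) and HLA-B (31353872 to 31367067, minus) are the heavy chain genes. TAP2 (32821833 to 32838739, minus), PSMB8 (32840717 to 32844679, minus), PSMB9 (32844136 to 32859851, plus) and TAP1 (32845209 to 32853816, minus) form a cluster in which the span of PSMB9 overlaps PSMB8 and holds TAP1, and TAPBP is at 33299694 to 33314284 on the minus strand. The exons of the canonical TAP1 transcript share 577 bp with PSMB8-AS1 on the opposite strand, and 35.3% of the 50-base words of the TAP2 transcript also occur in ENSG00000250264, which shares 2023 bp of exon with TAP2 on the same strand. How the library strand was treated is not given in the sources used here. The level of PSMB8-AS1 was at most 0.633 CPM (library-scaled counts after TMM) in any library, and that of ENSG00000250264 was at most 2.47 CPM, except in SUM159 wild type cells of run 2, where it was 3.09 to 7.07 CPM.

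Promoters were searched for such elements because most members are tested here as genes that may move together. RefSeq (GRCh38.p14) gives 10 windows for 8 of the 9 genes, each from 250 bases before to 50 after a start site. HLA-E had no window and was not searched. An interferon response-like motif (GAAA, any 2 bases, GAAA, searched on both strands) was present in B2M, TAP1, TAP2, TAPBP and PSMB8, against 3.57% of the 35116 windows of all genes. A motif of the NF-κB type (GGGGATTC, both strands) was present in HLA-B and HLA-C, against 0.888% of windows. Only this exact string was searched, so other forms of an NF-κB site in the remaining members would be missed. The E-box bound by ZEB1 (CACCTG, both strands) was present once in B2M and once in PSMB8, against 20.6% of windows. A match is a description of the letters and not a bound site. The windows below are written on the strand of the gene with the motif in capitals and its coordinates on GRCh38, and TAP1 and PSMB8 hold the motif on the other strand.
B2M, chr15:44711379-44711388: ctaagaaaagGAAACTGAAAacgggaaagt
TAP1, chr6:32853829-32853838: aggcggccgcTTTCGATTTCgctttcccct
TAP2, chr6:32838788-32838797: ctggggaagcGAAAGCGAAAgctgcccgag
TAPBP, chr6:33314089-33314098: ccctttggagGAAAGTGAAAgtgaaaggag
PSMB8, chr6:32844042-32844051: gatctgtggcTTTCGCTTTCacttcctcct
HLA-B, chr6:31357349-31357356: ggcgcagcgttGGGGATTCcccactcccct
HLA-C, chr6:31272258-31272265: ggcgccgcgttGGGGATTCtccactcccct
B2M, TAP1 and TAPBP each hold a further copy of the interferon response-like motif that overlaps the copy shown. HLA-B and HLA-C carry the same letters at nearly the same distance, 177 and 173 bases before their start sites.

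Library totals were 15461200 to 21473757 estimated counts, and replicates of a group correlated across genes at 0.980 to 0.987. ZEB1, the target, was at 73.7 ± 3.45 CPM (mean ± SD, n = 3) in SUM159 No gRNA cells, 3.45 ± 1.01 CPM with gRNA 4 and 0.733 ± 0.328 CPM with All gRNA. Its level in MDA-MB-231 was 110.1 ± 10.0 CPM in No gRNA cells, 5.36 ± 0.527 CPM in set 1 and 4.74 ± 0.894 CPM in set 2. ZEB1 was thus low in every targeted group, which does not tell which guides set 1 and set 2 carry. Of 10 leukocyte markers, PTPRC, the pan-leukocyte antigen, reached at most 5.3 counts in any library, and 2 markers in SUM159 and 4 in MDA-MB-231 exceeded 3 counts, of which CD68 held nearly the whole summed level of 8.54 to 33.6 CPM in SUM159 and 66.3 to 180 CPM in MDA-MB-231.

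Differences were tested with voom-limma over all genes. A gene is termed called when TREAT passes a log2 fold change of 1 with an adjusted p-value (Benjamini-Hochberg over all genes) under 0.05, and higher or lower when the moderated test against 0 of the same fit passes that threshold. The adjusted p-values below are those of the moderated test unless TREAT is named. With 3 libraries in each group, 0.1 is the smallest two-sided p-value that exact permutation allows, and each member whose groups did not overlap had it.

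Levels per kilobase of transcript show how unevenly the pathway was expressed. B2M was the highest gene in every group, with group means of 425 to 744 CPM per kilobase. In SUM159 wild type cells of run 1 it was followed by HLA-E at 23.0 ± 0.663, TAP2 at 16.4 ± 1.39, HLA-B at 9.55 ± 1.75, TAPBP at 9.32 ± 0.829, TAP1 at 4.37 ± 0.570, HLA-C at 3.34 ± 0.413, PSMB8 at 3.00 ± 0.231 and PSMB9 at 2.08 ± 0.232 CPM per kilobase (SD, n = 3). HLA-B and TAPBP, and HLA-C and PSMB8, did not differ beyond their spread in this order. In MDA-MB-231 wild type cells, TAP2 was second at 22.2 ± 3.83 CPM per kilobase, HLA-E next at 11.7 ± 0.472, and HLA-B and TAPBP were last at 0.921 ± 0.650 and 0.461 ± 0.573.

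**Figure D1:**
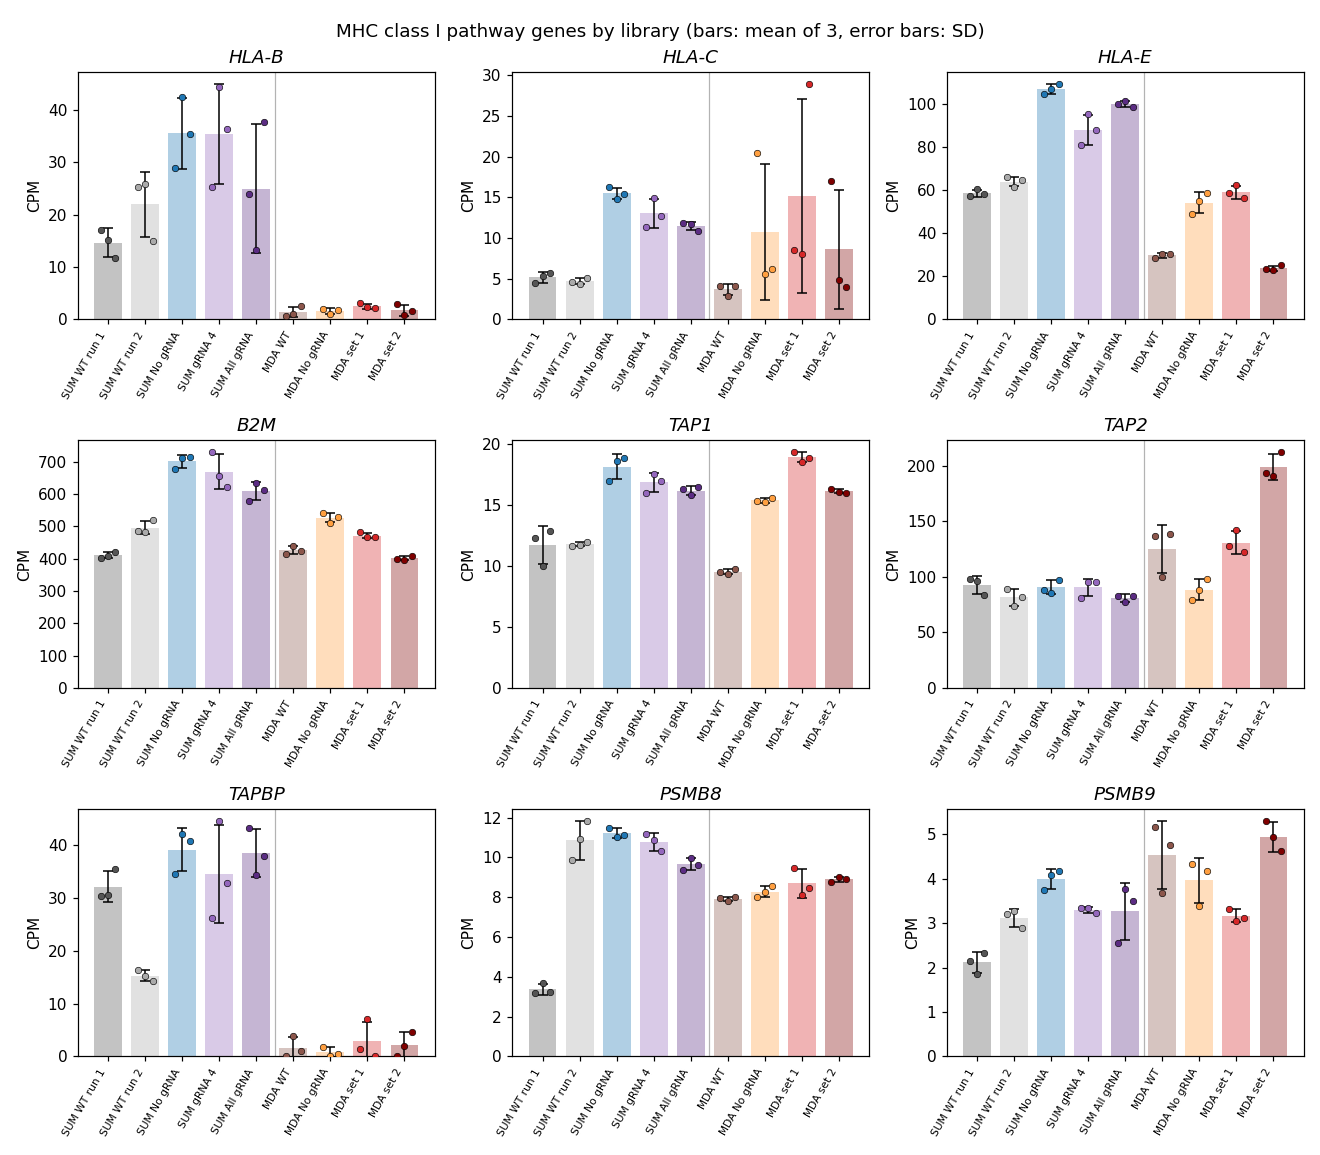
Level of each member in CPM (y axis, from 0, a different scale in each panel) in the 9 groups of SUM159 (SUM) and MDA-MB-231 (MDA) cells, WT standing for wild type. Points are libraries, bars are means of 3 libraries and error bars are SD. HLA-B and TAPBP are near 0 in MDA-MB-231, and HLA-C has 1 library far above the other 2 in each transduced MDA-MB-231 group.

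In SUM159 most members differed between untransduced cells and cells with dCas9-KRAB and no guide. In No gRNA cells 7 of the 9 members were higher than in wild type cells of run 1 and 0 were lower, where 42.9% of all genes tested passed in either direction and 21% passed as higher. The median log2 fold change of the members was 0.86, against 0.02 over all genes tested. TREAT called 2 of the 9, PSMB8 and HLA-C, against 1.53% of all genes, and 1, PSMB8, when any 1 of the 6 libraries was left out.

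Among the heavy chains, HLA-C was at 4.45, 5.33 and 5.69 CPM in the wild type libraries of run 1 and at 16.2, 14.8 and 15.4 CPM in No gRNA, a log2 fold change of 1.58 (standard error 0.131, adjusted p = 2.94e-06, TREAT adjusted p = 0.0336, a call that other settings of the fit also lost). HLA-E, at 57.2, 60.5 and 58.2 CPM in wild type, was at 105, 106.9 and 109.6 CPM in No gRNA (log2 fold change 0.86, standard error 0.0607, adjusted p = 8.08e-07). HLA-B moved from 11.8 to 17.1 CPM over the wild type libraries to 28.8 to 42.4 CPM over those of No gRNA (log2 fold change 1.26, standard error 0.338, adjusted p = 0.0108). In all 3 heavy chain genes each No gRNA library was above each wild type library, and 7 of the 9 members had no overlap between these groups, as did 54.1% of all genes.

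The light chain B2M was at 401.5, 409.3 and 420.5 CPM in wild type and at 678.7, 712 and 715.3 CPM in No gRNA (log2 fold change 0.76, standard error 0.0575, adjusted p = 1.33e-06). The peptide transporter did not move as a pair. TAP1 went from 10.0 to 12.9 CPM in wild type to 16.9 to 18.9 CPM in No gRNA (log2 fold change 0.63, standard error 0.104, adjusted p = 0.000533), while TAP2 was at 92.8 ± 7.83 and 90.6 ± 6.20 CPM (log2 fold change -0.04, 95% confidence interval -0.23 to 0.14, adjusted p = 0.7). TAPBP was at 32.2 ± 2.86 CPM in wild type and 39.2 ± 4.03 CPM in No gRNA and missed the threshold (adjusted p = 0.194).

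The immunoproteasome subunits were both higher. PSMB8 was at 3.20, 3.67 and 3.24 CPM in wild type and 11.5, 11.02 and 11.2 CPM in No gRNA, the largest change of a member here, with a log2 fold change of 1.72 (standard error 0.112, adjusted p = 4.24e-07, TREAT adjusted p = 0.00306). PSMB9 was at 2.11 ± 0.236 and 4.00 ± 0.231 CPM (log2 fold change 0.91, standard error 0.176, adjusted p = 0.00147). The counterparts in the standard proteasome did not share this direction, with PSMB5 and PSMB6 lower and PSMB7 not past the test.

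The wild type cells of run 2 set a limit on part of this difference. PSMB8 was at 9.87, 10.9 and 11.8 CPM in run 2 wild type cells, overlapping the No gRNA cells, although these wild type cells carry no vector. Run 2 wild type cells were higher than those of run 1 in PSMB8 (log2 fold change 1.68, adjusted p = 4.59e-06, TREAT adjusted p = 0.00684), PSMB9 (0.56, adjusted p = 0.0369) and B2M (0.27, adjusted p = 0.000191) and lower in TAPBP (-1.07, adjusted p = 0.0273), 4 of 9 members where 58.8% of all genes passed, and TREAT called PSMB8 alone, against 6.61% of all genes. HLA-B (0.55), HLA-C (-0.13), HLA-E (0.12), TAP1 (0.01) and TAP2 (-0.20) did not pass. The summed level of the leukocyte markers was 8.54 to 11.4 CPM in run 1 and 29.2 to 33.6 CPM in run 2, with both tested markers called higher, and of the 24 interferon-stimulated genes 5 were higher and 13 lower in run 2, with a median log2 fold change of -0.55. The part of either in the run difference was not tested. PSMB9 no longer passed when any 1 of these 6 libraries was left out, nor TAPBP when any but wild type run 1 replicate 1 was. Against the wild type cells of run 2, in a fit of 15 libraries added after the data were seen, the No gRNA cells had a log2 fold change of 0.05 in PSMB8 (adjusted p = 0.675), 0.36 in PSMB9 (adjusted p = 0.081) and 0.72 in HLA-B (adjusted p = 0.0916). In this comparison 46.3% of all genes passed. The No gRNA cells are of run 1, so run cannot be told apart from vector, transduction and selection in it. The differences in HLA-C (1.72, adjusted p = 3.03e-07), HLA-E (0.75, adjusted p = 3e-07), B2M (0.51, adjusted p = 6.77e-06) and TAP1 (0.62, adjusted p = 0.000193) were present against both sets of wild type cells, and TAPBP was higher in No gRNA against run 2 (1.36, adjusted p = 3.6e-05) but did not pass against run 1. TAP2 passed against neither (0.16 against run 2). Whether the cells of run 2 were grown or extracted apart from those of run 1 is not given in the sources used here.

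**Figure D2:**
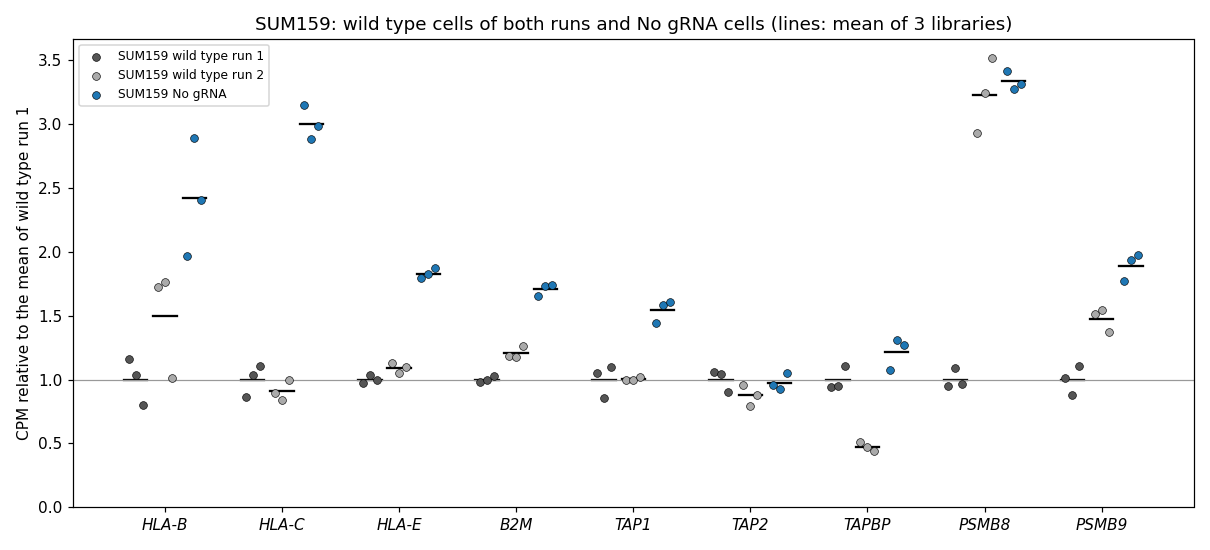
Level of each member in SUM159 relative to the mean of wild type run 1 (y axis, ratio of CPM) in wild type cells of run 1, wild type cells of run 2 and No gRNA cells of run 1. Points are libraries and lines are means of 3. PSMB8 of run 2 wild type cells is as high as in No gRNA cells, while HLA-C, HLA-E, B2M and TAP1 of No gRNA cells lie above both wild type groups.

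Other genes of the same axis were counted beside the members. Over all genes tested in SUM159 No gRNA against wild type run 1, 42.9% passed in either direction, 21% passed as higher and TREAT called 1.53%. Of 24 interferon-stimulated genes, 15 were higher and 1 was lower in SUM159 No gRNA than in wild type run 1, with 5 called by TREAT (ISG15, IFIT1, IFIT2, IFIT3 and UBE2L6). IFIT1, an RNA-binding antiviral protein, was at 13.6 CPM against 0.459 CPM (log2 fold change 4.82, standard error 0.223, TREAT adjusted p = 8.16e-07). Of 10 genes of interferon receptors and signalling, 3 were higher, among them STAT2 (log2 fold change 1.23) and IRF9 (0.96), parts of the complex that binds interferon response elements, and 1 was lower. Of 14 transcription factors that act on class I promoters, 1 was higher and 5 were lower, among them RFXAP (-0.84). Of 12 trimming and loading genes, 3 were higher, including the peptide-trimming ERAP1 (0.42) and the chaperone CANX (0.36), and 1 was lower. CD14 (1.2 against 0.150 CPM) and CD68 (17.6 against 10.0 CPM), from the list of 10 leukocyte markers, were also higher in No gRNA than in wild type run 1. In each of these groups 2 of the 10 markers exceeded 3 counts and 6 were at 0 in every library. The part of CD14 and CD68 in these differences was not tested. In bulk RNA, more cells that express a gene and more RNA per cell cannot be told apart.

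The same comparison was made in MDA-MB-231, and its difference from SUM159 was not tested. In No gRNA cells 3 of 9 were higher than in wild type (HLA-E, B2M, TAP1) and 1 was lower (TAP2), where 53.8% of all genes passed, and TREAT called 0 against 3.6% of all genes, as did edgeR and DESeq2 at the same fold threshold, with 0 at an unadjusted p-value under 0.05. HLA-E was at 28.4, 30.6 and 30.4 CPM in wild type and 49.0, 55.2 and 58.7 CPM in No gRNA (log2 fold change 0.80, standard error 0.0810, adjusted p = 6.78e-06). TAP1 was at 9.38 to 9.73 CPM in wild type and 15.2 to 15.6 CPM in No gRNA (log2 fold change 0.63, standard error 0.0748, adjusted p = 2.65e-05). B2M was at 426.2 ± 12.5 and 526.6 ± 14.2 CPM (log2 fold change 0.24, standard error 0.0291, adjusted p = 2.61e-05). HLA-E, B2M and TAP1 passed in the same direction in both lines, each within its own line and run. The share of all genes that pass in the same direction in both lines was not computed, so this agreement has no background to be read against.

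TAP2 went the other way in MDA-MB-231, from 136.9, 100.1 and 138.2 CPM in wild type to 79.0, 88.5 and 97.9 CPM in No gRNA (log2 fold change -0.55, standard error 0.125, adjusted p = 0.00305), so the transporter genes TAP1 and TAP2 changed in opposite directions. The immunoproteasome genes did not pass: PSMB8 was at 7.92 ± 0.106 and 8.27 ± 0.284 CPM (log2 fold change 0.00, 95% confidence interval -0.21 to 0.21) and PSMB9 at 4.54 ± 0.772 and 3.96 ± 0.505 CPM (log2 fold change -0.25, 95% confidence interval -0.59 to 0.10). In SUM159 the PSMB8 log2 fold change of No gRNA was 1.72 against wild type run 1 and 0.05 against wild type run 2. The second value crosses runs, and the difference of either from MDA-MB-231 was not tested. HLA-B (log2 fold change 0.21), HLA-C (1.22) and TAPBP (-0.64) did not pass either. Of the 24 interferon-stimulated genes, 12 were higher and 1 was lower, with IFIT2 (log2 fold change 1.5) and GBP2 (3.00) called, and MR1, a class I-like chain that presents vitamin metabolites, was called at 1.67. Over all genes tested, 53.8% passed in either direction and TREAT called 3.6%. The 3 standard proteasome genes were all lower, PSMB5 by a log2 fold change of -0.54. CD68 was at 105.4 CPM in wild type and 168 CPM in No gRNA.

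Repression of ZEB1 itself left every member in both lines short of the TREAT threshold. Against No gRNA, TREAT, edgeR and DESeq2 at a log2 fold change of 1 called 0 of 9 members in each of the 4 comparisons, where TREAT called 0.396% of all genes for All gRNA, 0.39% for gRNA 4, 1.47% for set 1 and 4.14% for set 2. The unadjusted TREAT p-value was under 0.05 for 1 member, HLA-E in set 2. All 4 comparisons share the No gRNA libraries of their line with the comparisons against wild type above.

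**Figure D3:**
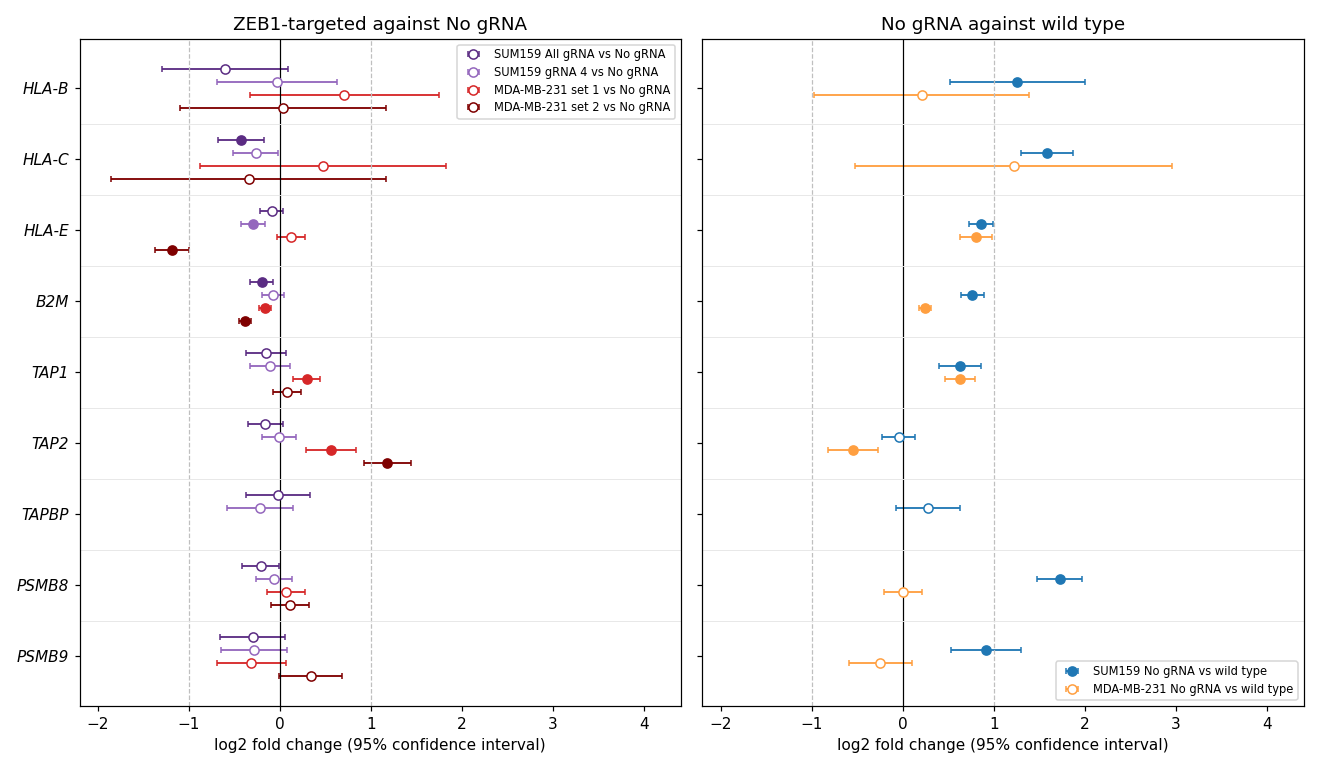
Log2 fold change of each member (x axis) with its 95% confidence interval, on the left for the 4 ZEB1-targeted groups against No gRNA and on the right for No gRNA against wild type. Filled points passed the moderated test, dashed lines mark a log2 fold change of -1 and 1, and TAPBP of MDA-MB-231 is left out because its intervals run from -6.46 to 6.80. The clearest shifts on the left are those of HLA-E (-1.18) and TAP2 (1.18) in set 2, and on the right those of SUM159.

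In SUM159 with All gRNA, 2 of 9 members were lower than in No gRNA and 0 were higher, where 10.8% of all genes passed. HLA-C was at 11.9, 11.7 and 10.9 CPM, each below the 14.8 to 16.2 CPM of No gRNA (log2 fold change -0.43, standard error 0.114, adjusted p = 0.0334), and B2M at 579.5, 633.6 and 613.6 CPM, each below the 678.7 to 715.3 CPM of No gRNA (log2 fold change -0.20, standard error 0.0559, adjusted p = 0.0396). Neither passed once any 1 of the 6 libraries was left out. For 6 of the 9 members all All gRNA libraries were below all No gRNA libraries, which holds in either direction for 29.5% of all genes, and the log2 fold changes of all 9 ran from -0.60 (HLA-B, 95% confidence interval -1.30 to 0.09) to -0.02 (TAPBP). HLA-E (-0.09), TAP1 (-0.16), TAP2 (-0.16), PSMB8 (-0.21) and PSMB9 (-0.30) lay between and did not pass.

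With gRNA 4 alone, 1 of 9 members was lower, where 11% of all genes passed. This was HLA-E, at 81.0, 95.3 and 87.9 CPM against 105 to 109.6 CPM (log2 fold change -0.29, standard error 0.0588, adjusted p = 0.00695). B2M was at 669.6 ± 55.1 CPM (log2 fold change -0.08, 95% confidence interval -0.20 to 0.04) and PSMB8 at 10.8 ± 0.449 CPM (log2 fold change -0.07, 95% confidence interval -0.26 to 0.13). HLA-B (-0.03), HLA-C (-0.27), TAP1 (-0.11), TAP2 (-0.01), TAPBP (-0.22) and PSMB9 (-0.28) did not pass. Between All gRNA and gRNA 4, 0 of 9 members passed the moderated test, edgeR or DESeq2, where 0.944% of all genes passed, and HLA-E and B2M were the 2 with an unadjusted p-value under 0.05. HLA-E was higher with All gRNA by 0.20 on the log2 scale, with a 95% confidence interval of 0.07 to 0.33, and the other members ran from -0.57 (HLA-B) through -0.16 (HLA-C), -0.15 (TAP2, PSMB8), -0.12 (B2M), -0.05 (TAP1) and -0.02 (PSMB9) to 0.20 (TAPBP).

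Targeted SUM159 cells were also compared with untransduced cells. Against wild type run 1, 6 members were higher with All gRNA and 7 with gRNA 4, among them HLA-C (log2 fold change 1.15 and 1.32), HLA-E (0.77 and 0.57), B2M (0.56 and 0.69), TAP1 (0.47 and 0.51) and PSMB8 (1.51 and 1.66). Of all 15147 genes tested, 7384 passed in either direction with All gRNA and 7096 with gRNA 4. In wild type run 2, PSMB8 was at 10.9 ± 0.976 CPM, against 9.66 ± 0.297 CPM with All gRNA and 10.8 ± 0.449 CPM with gRNA 4, and PSMB9 at 3.12 ± 0.199 CPM, against 3.27 ± 0.641 and 3.30 ± 0.0686 CPM, so for these genes the difference depends on which wild type cells are used. The interferon-stimulated genes were partly lower than in No gRNA, 7 of 24 with All gRNA and 6 with gRNA 4, with 0 higher in both and 0 called. Against No gRNA, 10.8% of all genes passed in either direction with All gRNA and 11% with gRNA 4. IFIT3 was at 34.6 CPM in No gRNA, 15.6 with All gRNA and 13.0 with gRNA 4. IRF1, a transcription factor that acts on class I promoters, was at 42.7, 26.4 and 22.6 CPM in the same order (log2 fold change -0.70 and -0.94, adjusted p = 0.00216 and 0.000308), and ERAP2, a peptidase that trims class I peptides, was lower with All gRNA (log2 fold change -0.72, adjusted p = 0.00331). CD68 was at 23.0 CPM with All gRNA and 21.9 with gRNA 4, above the 17.6 of No gRNA, and CD14 at 0.504 and 0.461 CPM, under the 1.2 of No gRNA.

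In MDA-MB-231 the targeted sets differed from No gRNA and from each other. In set 1, TAP1 and TAP2 were higher and B2M was lower, 3 of 9 members where 37.8% of all genes passed. In set 2, TAP2 was higher and HLA-E and B2M were lower, 3 of 9 members where 52.4% passed. Neither share exceeded that of all genes. TAP2 and B2M passed in the same direction in both sets, which were compared with the same No gRNA libraries. The share of all genes that do so in both sets was not computed. Not past the test were HLA-B (log2 fold change 0.71 in set 1 and 0.03 in set 2), HLA-C (0.47 and -0.34), TAPBP (1.37 and 1.36), PSMB8 (0.07 and 0.11) and PSMB9 (-0.32 and 0.34).

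TAP2 had the values 127.8, 142 and 122 CPM in set 1 and 193.1, 190.9 and 212.3 CPM in set 2, all above the 79.0 to 97.9 CPM of No gRNA. Its log2 fold change was 0.56 in set 1 (standard error 0.125, adjusted p = 0.0043) and 1.18 in set 2 (standard error 0.117, adjusted p = 6.97e-06, TREAT adjusted p = 0.869). Against wild type cells, where TAP2 was at 125.1 ± 21.6 CPM, set 1 had a log2 fold change of 0.01 (adjusted p = 0.934) and set 2 one of 0.63 (adjusted p = 0.00101). TAP1, its partner, was at 18.5 to 19.3 CPM in set 1 (log2 fold change 0.29, standard error 0.0662, adjusted p = 0.00455) and at 16.0 to 16.3 CPM in set 2 (log2 fold change 0.08, adjusted p = 0.362). ENSG00000250264, which shares sequence with TAP2, did not pass in either set (adjusted p = 0.147 and 0.52).

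HLA-E separated the sets most. Its values were 58.9, 62.3 and 56.2 CPM in set 1, overlapping the 49.0 to 58.7 CPM of No gRNA, and 23.2, 23.0 and 25.1 CPM in set 2, below every other library of the line. Set 2 had a log2 fold change of -1.18 against No gRNA (standard error 0.0862, adjusted p = 5.06e-07, TREAT adjusted p = 0.391) and of -0.38 against wild type (adjusted p = 0.00815). Between set 1 and set 2, HLA-E differed by 1.31 (standard error 0.0864, adjusted p = 2.23e-07, TREAT adjusted p = 0.0663), and it was called there by edgeR, by DESeq2 and with upper quartile scaling, where TREAT called 3.07% of all genes.

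B2M was at 481.4, 466.4 and 467.1 CPM in set 1 (log2 fold change -0.16, standard error 0.0290, adjusted p = 0.00108) and at 400.1, 394.7 and 407.3 CPM in set 2 (log2 fold change -0.39, standard error 0.0298, adjusted p = 8.1e-07), against 511.9 to 540.1 CPM in No gRNA. The direction of set 1 turned with the control, since set 1 was above wild type by 0.08 (adjusted p = 0.034). Set 1 was above set 2 in HLA-E, B2M (0.22) and TAP1 (0.22) and below it in TAP2 (-0.61) and PSMB9 (-0.65), 5 of 9 members where 51.5% of all genes passed, though TAP1 no longer passed without set 1 replicate 1 or set 2 replicate 3. HLA-B (0.67), HLA-C (0.82), TAPBP (0.01) and PSMB8 (-0.05) did not pass between the sets. PSMB9 was at 3.04 to 3.33 CPM in set 1 and 4.62 to 5.30 CPM in set 2, and PSMB8 at 8.69 ± 0.714 and 8.89 ± 0.131 CPM, so the subunits of the immunoproteasome did not move as a pair.

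Among genes of the same axis, 2 of the 24 interferon-stimulated genes were higher and 9 lower in set 1, and 1 was higher and 11 lower in set 2. Over all genes, 37.8% passed in either direction in set 1 and 52.4% in set 2. GBP2, a guanylate-binding protein made on interferon exposure, fell from 47.9 CPM without a guide to 15.6 CPM (set 1) and 8.26 CPM (set 2) and was called in both (TREAT adjusted p = 0.00538 and 8.09e-06). XAF1 (log2 fold change -1.66) and BST2 (-1.54) were called in set 2, as was MR1 (-1.48). CIITA, the regulator of MHC class II genes, was at 15.9 CPM in No gRNA and 2.79 in set 1 (TREAT adjusted p = 0.000401). The summed level of the 10 leukocyte markers was 103 to 110 CPM in wild type, 165 to 180 CPM without a guide, 158 to 161 CPM for set 1 and 66.3 to 68.6 CPM for set 2. Nearly all of this sum was CD68, a lysosomal protein also made outside leukocytes. CD68 and CD14 were called lower in set 2, and PTPRC was at or under 5.3 counts. The relation of these markers to the HLA-E values was not tested.

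The response to the gRNAs differed between the lines for 4 of 9 members in a test of the interaction over 24 libraries, where 25.4% of all genes passed, and TREAT, edgeR and DESeq2 at a log2 fold change of 1 called 0, as at an unadjusted p-value under 0.05, against 0.954% of all genes by TREAT. The mean response of both targeted groups was 0.85 in MDA-MB-231 and -0.08 in SUM159 for TAP2 (difference 0.93, standard error 0.138, adjusted p = 3.83e-05), and -0.55 and -0.19 for HLA-E (difference -0.36, standard error 0.0799, adjusted p = 0.00206). The HLA-E mean of MDA-MB-231 combines 0.12 in set 1 with -1.18 in set 2, so set 2 carries its direction. HLA-B (difference 0.66), HLA-C (0.39), TAPBP (1.45), PSMB8 (0.20) and PSMB9 (0.28) did not pass. TAP1 (difference 0.30, adjusted p = 0.0272) and B2M (-0.16, adjusted p = 0.0434) passed more narrowly. TAP1 no longer passed without SUM159 No gRNA replicate 2 or 3 or MDA-MB-231 No gRNA replicate 1 or 2, and B2M no longer passed in 12 of the 18 fits that leave out 1 library. Line and sequencing run cannot be told apart for the transduced groups.

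HLA-B, HLA-C and TAPBP could not be measured to the same standard. In MDA-MB-231, HLA-C was at 20.4, 5.62 and 6.18 CPM in No gRNA, 8.47, 8.04 and 29.0 CPM in set 1 and 17.0, 4.81 and 3.97 CPM in set 2. One library of each group stood far above the others, and the spread over counting error (variance divided by that of a Poisson count) was 101 to 154, against 0.0228 to 9.28 for HLA-E, B2M, TAP1, PSMB8 and PSMB9 and 10.4 to 20.3 for TAP2 in the same groups. TAP2 had 64.5 in MDA-MB-231 wild type cells. TAPBP was at 0, 66.1 and 17.7 estimated counts in MDA-MB-231 wild type, 31.6, 0.3 and 8.4 in No gRNA, 23.0, 118.2 and 0.4 in set 1 and 0.7, 35.2 and 72.0 in set 2. No difference of these genes within MDA-MB-231 passed the moderated test, although DESeq2 passed HLA-C in No gRNA against wild type, with 95% confidence intervals of HLA-C against No gRNA from -0.87 to 1.82 in set 1 and from -1.85 to 1.16 in set 2.

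The share of reference sequence found in alternate haplotypes varied widely for these 3 genes and for HLA-E. A stretch missing from a haplotype and a differing sequence look the same in this search. The members' 50-base exonic words were looked up in the 7 alternate MHC haplotypes of GRCh38, and the share found exactly in a haplotype ran from 1.72% to 67.0% for HLA-B, 8.57% to 90.3% for HLA-C, 4.34% to 100% for TAPBP and 4.73% to 100% for HLA-E, but from 99.6% to 100% for PSMB8, 97.7% to 100% for TAP1, 86% to 100% for PSMB9 and 81% to 98.3% for TAP2. Of the HLA-B transcript 20.6% of 50-base words also occur in transcripts of other genes, and of TAPBP 41.2%, over 958 genes, and of B2M and PSMB8 0%. Whether the authors' index held the alternate haplotypes is not given in the sources used here. The part of haplotypes and of overlapping genes in these values was not tested.

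Between the lines, in wild type cells of run 2, 8 of 9 members differed, 6 lower and 2 higher in MDA-MB-231, where 74.8% of all genes passed, and TREAT called HLA-B and TAPBP lower, against 28.9% of all genes. HLA-E was at 29.8 ± 1.2 CPM in MDA-MB-231 and 64.1 ± 2.27 CPM in SUM159 (log2 fold change -1.10, adjusted p = 2.17e-07). TAP2 (log2 fold change 0.61, adjusted p = 0.00283) and PSMB9 (0.52, adjusted p = 0.0241) were higher in MDA-MB-231, and TAP1 was lower (-0.30, adjusted p = 0.0478). TAP1 no longer passed without any 1 of these 6 libraries, nor PSMB9 without any but MDA-MB-231 wild type replicate 2. HLA-C did not pass (-0.36). The B2M and PSMB8 differences (-0.21 and -0.45) turned to 0.05 and 1.23 against SUM159 wild type run 1. HLA-B had a log2 fold change of -4.08 (TREAT adjusted p = 0.000677) and TAPBP one of -4.92 (TREAT adjusted p = 0.00952), both subject to the uncertainty of assignment above.

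The genes whose pattern was most like the mean of the 9 members, over 24 libraries with each line centred on its own mean and 13766 genes compared, were RILPL2 (Pearson r = 0.90), DEAF1 (0.86), AFF1 (0.85), ZNF836 (0.84) and LGALS3 (0.84). These correlations describe groups of 3 libraries that share treatment and run. Within SUM159 r was 0.97, 0.89, 0.91, 0.89 and 0.96 for these genes in the same order, and within MDA-MB-231 0.81, 0.84, 0.79, 0.78 and 0.67. The mean includes HLA-C and TAPBP, whose values varied widely between MDA-MB-231 replicates. Among the members, the most alike pair was B2M and PSMB8 (0.86), followed by HLA-E and B2M (0.75). Within SUM159 B2M and PSMB8 had r = 0.98 and within MDA-MB-231 r = -0.17, where HLA-E and B2M were the most alike (0.87).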

How the data were processed

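The authors sequenced RNA with single-end reads of 50 bp and deposited estimated counts for each gene, made with Salmon (GRCh38) and tximport, corrected for transcript length and not normalized between libraries. Salmon's index, the annotation and the strandedness are not given in the sources used here. Conditions came from the sample labels, and 56347 of 57165 identifiers were matched to GENCODE. The members and lists were chosen with earlier results of these data known.

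The main test was voom-limma with TREAT, which the study names (R 4.3.3, limma 3.58.1, 0.5 added to counts), here after TMM scaling and filterByExpr (minimum count 10), over the 12 libraries of a line, 9 wild type libraries, or 24 for the interaction. P-values are two-sided and Benjamini-Hochberg adjusted over all genes, and measure the spread between the 3 libraries of a group. edgeR 4.0.16 and DESeq2 1.42.0 ran on counts rounded to whole numbers. Exact tests used log2 CPM with a prior count of 2. Steps were tested on simulated data.

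All members were taken in every comparison. From the other lists, the rule took genes past TREAT in a comparison with No gRNA and the 3 of each list with the largest change past the moderated test. CANX in SUM159, PSMB5 to PSMB7 and the leukocyte markers are also given, chosen after their values were seen where the rule did not take them. One further gene and the alternative that used it are not reported here.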

Additional observations from a re-analysis of the deposited data

Results flagged for a closer look

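The responses of 4 of 9 members to the gRNAs differed between the lines in the interaction test, where 25.4% of all genes passed. TREAT called 0 members. The difference, MDA-MB-231 minus SUM159 on the log2 scale, was 0.93 for TAP2, 0.30 for TAP1, -0.36 for HLA-E and -0.16 for B2M. Of 18 fits that leave out 1 library, B2M no longer passed in 12 and TAP1 in 4. Line and sequencing run cannot be told apart for these groups. Groups of 3 libraries are too small for a test of outlying libraries.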

How the results depend on the processing

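The 9 members were refitted with other scalings, filters, tests, weights, libraries and controls. In SUM159 All gRNA, the count past the moderated test went from 2 to 1 without a filter or with all 27 libraries in 1 fit, to 0 with the replicate block and to 0 with any library left out. With wild type as control it was 6 for All gRNA and 7 for gRNA 4, with 1 called in each. Of all 15147 genes, 7384 passed with All gRNA and 7096 with gRNA 4, and TREAT called 349 and 373. With this control the signs turned for All gRNA in HLA-C (1.15), HLA-E (0.77), B2M (0.56), TAP1 (0.47), PSMB8 (1.51) and PSMB9 (0.61). They turned for gRNA 4 in HLA-B (1.23), HLA-C (1.32), HLA-E (0.57), B2M (0.69), TAP1 (0.51), PSMB8 (1.66) and PSMB9 (0.63), and for set 1 in B2M (0.0829). For SUM159 No gRNA against wild type, TREAT called 1 of 9 in place of 2 without a filter, with the replicate block, with only the compared groups, with all 27 libraries or with any library left out (1 in each, PSMB8), and 1 against wild type run 2 (HLA-C). Between the sets, TREAT called 1 (HLA-E) with upper quartile scaling, edgeR, DESeq2 or all 27 libraries. For the runs, 2 members passed without a filter or by DESeq2, and 2 to 3 with a library left out. For the lines, DESeq2 called 1 in place of 2, and against run 1 B2M was 0.05 and PSMB8 1.23. The interaction count was 2 to 4 with a library left out. The causes were not tested.

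Replicate numbers did not pair the samples (correlation of deviations -0.083 to 0.053 over the 10 comparisons). With the replicate block, 4 of 99 member results lost their call (HLA-C and B2M with All gRNA, TAPBP between runs, B2M in the interaction). Upper quartile scaling moved the median of all genes to -0.11 in set 2. Summing heavy chain identifiers with the same symbol was not run, since the tables pair no other identifier with them. Low counts limit what the MDA-MB-231 libraries can show of HLA-B (group means of 25.2 to 40.3 counts) and TAPBP (13.4 to 47.2 counts).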

Other observations

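Other antigen presentation genes past the moderated test were MICB, a stress ligand of NK cells (log2 fold change 1.48), and the proteasome activator PSME3 (0.77), both higher in MDA-MB-231 set 2 than in No gRNA. CD74, the class II invariant chain, was lower there (-0.87). PSMB10, the remaining catalytic immunoproteasome subunit (-0.51), and the transcription factor USF1 (-0.76) were lower, and IRF9 (1.03) was higher, in MDA-MB-231 No gRNA than in wild type. CD1D, a lipid-presenting chain (1.05), the activator subunit PSME1 (0.50) and the signalling inhibitor SOCS1 (1.15) were higher in SUM159 No gRNA than in wild type run 1. CANX was higher in set 1 than in No gRNA (0.42).

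TAP1 varied less between libraries than a Poisson count would in the 4 MDA-MB-231 groups, with variances of 0.0228 to 0.108 times the Poisson value. PSMB8 did so too, with 0.0214 to 0.886 times that value. In SUM159 groups TAP1 ran from 0.027 to 4.05 times. Each ratio rests on 3 libraries, and the pattern was picked after its values were seen. Pairs of replicates differed over all genes of at least 50 counts by a mean of 8.39 to 20.7 times counting error.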
